A study of Homo sapiens with 10 samples.

Results

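Levels of 10 long noncoding RNAs described in prostate cancer were examined in 5 prostate cancer cell lines. The genes were PCA3, PCGEM1, PCAT1, PCAT14, SCHLAP1, DRAIC, MALAT1, NEAT1, H19 and HOTAIR. They were chosen by name from a list, with no threshold on a measured value but with earlier results of these data known. All 10 were present among the 60642 gene symbols of the expression table, and 7 of them reached at least 1 TPM (a length-corrected share of the transcripts) in at least 2 samples, the condition for testing. PCA3, PCGEM1 and HOTAIR did not reach it.

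The study profiled untreated cultures of LNCaP, DUCAP, VCAP, DU145 and PC3 by bulk RNA-seq. Each line was sampled in 2 biological repeats, which gave 10 libraries. All are human prostate cancer lines, grown in phenol-red-free medium with fetal bovine serum and harvested during exponential growth, with no treatment or genetic change that would separate them. LNCaP came from a lymph node metastasis, PC3 from bone and DU145 from brain, and DUCAP and VCAP were derived from metastases of the same patient, so these are lines and not independent groups of patients. The comparison drawn most often here sets LNCaP, DUCAP and VCAP against DU145 and PC3, a split that the study itself makes.

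TPM is the abundance of a gene's transcripts per length as a share of the sample's total, so levels of different genes can be set side by side, but they do not show the number of reads behind a value. Mitochondrial genes took 18.9 to 36.0% of the TPM in LNCaP, DUCAP and VCAP and 12.7 to 22.5% in DU145 and PC3. Over 6 prostate luminal markers the summed level was 3182 to 8841 TPM in LNCaP, DUCAP and VCAP, 354 to 567 TPM in PC3 and 11.8 to 12.9 TPM in DU145. The PC3 sum was mostly HOXB13, at 328 and 502 TPM, which was lower in LNCaP, DUCAP and VCAP at 52.1 to 201 TPM. KLK3, the gene of prostate-specific antigen, was at most 0.77 TPM in the DU145 and PC3 libraries, whereas the summed level of 4 epithelial markers was at least 537 TPM in every library. Leukocyte markers summed to at most 0.2 TPM, fibroblast markers to at most 39.3 TPM (PC3) and endothelial markers to at most 5.46 TPM (LNCaP). In bulk RNA a smaller share of cells with a transcript cannot be told apart from less of that transcript in each cell.

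Long noncoding RNAs are transcripts, usually spliced and polyadenylated, that are not translated into a protein of known function, and many of them are made in only a few tissues. MALAT1 and NEAT1 are abundant RNAs of the nucleus. MALAT1 concentrates in nuclear speckles, which hold splicing factors, and NEAT1 is the scaffold of paraspeckles. H19 is an imprinted RNA expressed from the maternal allele, and HOTAIR is transcribed within the HOXC cluster. The others drew attention through prostate tumours. PCA3 is the basis of a urine test for prostate cancer, PCGEM1 is largely restricted to the prostate, and PCAT1, PCAT14 and SCHLAP1 were catalogued as transcripts raised in prostate cancer, while DRAIC was described as an RNA that restrains invasion.

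The RefSeq promoter table (GRCh38.p14) held windows around the annotated start site for 5 of the 10 genes, PCGEM1, PCA3, DRAIC, H19 and MALAT1. The windows of DRAIC, the gene with the largest difference between the 2 sets of lines, of PCGEM1, which was listed at 0 in DU145 and PC3, and of H19, the tested gene that differed in the other direction, are given in lower case, 5′ to 3′ on the gene's strand, with TGTTCT or its reverse complement AGAACA in capitals. TGTTCT is the hexamer that steroid receptors bind as part of a longer site. The DRAIC window is on the plus strand at chr15:69561470-69561769, the PCGEM1 window on the plus strand at chr2:192749595-192749894 and the H19 window on the minus strand at chr11:2001217-2001516.
DRAIC: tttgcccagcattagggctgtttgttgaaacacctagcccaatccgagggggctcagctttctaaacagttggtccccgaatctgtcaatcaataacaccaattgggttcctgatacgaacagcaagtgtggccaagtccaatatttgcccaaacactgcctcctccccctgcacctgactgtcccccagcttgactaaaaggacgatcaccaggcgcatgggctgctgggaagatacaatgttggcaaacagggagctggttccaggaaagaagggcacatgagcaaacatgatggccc
PCGEM1: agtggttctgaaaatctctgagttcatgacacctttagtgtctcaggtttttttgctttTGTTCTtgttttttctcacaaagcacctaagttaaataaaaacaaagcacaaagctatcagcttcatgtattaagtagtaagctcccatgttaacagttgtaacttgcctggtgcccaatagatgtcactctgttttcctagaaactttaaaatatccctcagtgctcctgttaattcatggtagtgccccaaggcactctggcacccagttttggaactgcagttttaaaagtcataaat
H19: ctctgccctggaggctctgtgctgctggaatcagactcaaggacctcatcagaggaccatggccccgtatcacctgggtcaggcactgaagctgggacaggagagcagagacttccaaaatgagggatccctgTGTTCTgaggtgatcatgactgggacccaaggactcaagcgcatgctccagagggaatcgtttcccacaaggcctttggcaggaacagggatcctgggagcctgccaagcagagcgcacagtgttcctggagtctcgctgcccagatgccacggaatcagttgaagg
The hexamer was present on either strand in the windows of PCGEM1 and H19 and in the downstream one of the MALAT1 windows, and was not in those of DRAIC and PCA3. Of all 35116 promoter windows in the table, 14.8% held it. A pair of these hexamers facing each other over 3 bases was in none of the windows, against 0.00285% of all. A TATAAA motif, on either strand, was found in the downstream MALAT1 window alone among these genes, against 11.5% of all windows. The motifs CCGGAAGT and TGTTTAC, also searched on both strands, were in none of the windows, against 4.14 and 3.42% of all. Counts of the CG dinucleotide were 0 in PCGEM1, 3 in PCA3, 5 in DRAIC, 6 in H19 and 37 and 14 in the MALAT1 windows, where the median over all windows was 14. These matches describe letters in a window and not binding.

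MALAT1 and NEAT1 were measured here in libraries made by polyA enrichment. The mature 3′ end of MALAT1 is made by cleavage and not by the usual polyadenylation, and an A-rich tract is encoded in its gene, as it is for the long isoform of NEAT1. The last 80 bases of an annotated transcript of each gene are given 5′ to 3′, with the final 15 bases in capitals. The MALAT1 transcript was ENST00000618132.2, of 4983 bases, picked as the annotated one with the longest final run of A. The NEAT1 transcript was ENST00000501122.2, of 22743 bases, picked as the longest annotated one.
MALAT1: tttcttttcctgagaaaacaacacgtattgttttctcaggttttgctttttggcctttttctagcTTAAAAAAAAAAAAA
NEAT1: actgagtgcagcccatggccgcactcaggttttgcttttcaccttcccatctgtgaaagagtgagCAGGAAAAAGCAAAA
The MALAT1 sequence ended in a run of 13 A, and the NEAT1 sequence in a run of 4 A. Since the MALAT1 transcript was picked for its run, these lengths cannot be compared. How each form of these RNAs was recovered by polyA enrichment was not tested.

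**Figure D1:**
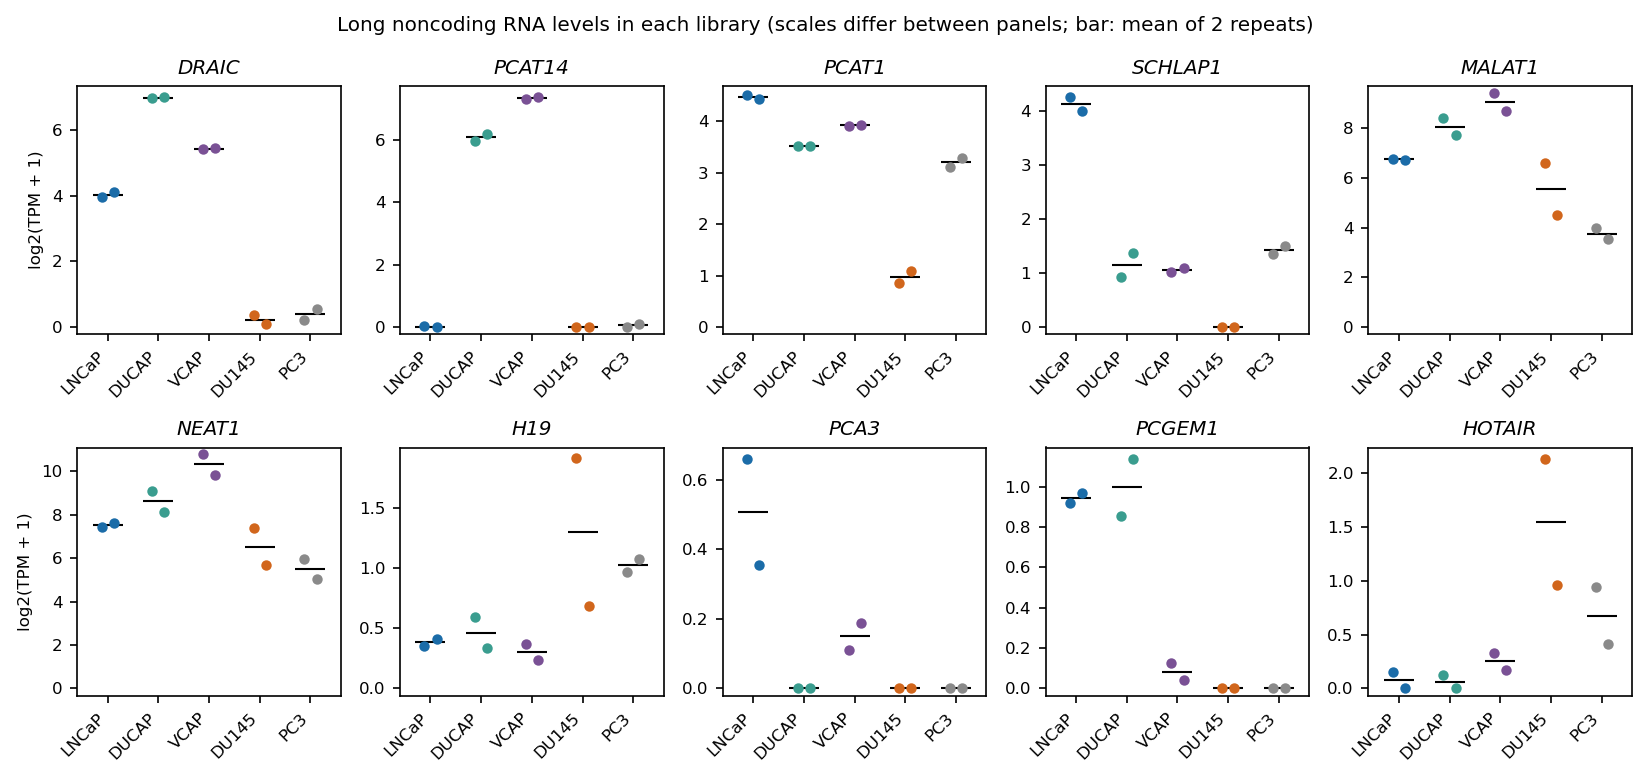
Level of each of the 10 long noncoding RNAs in each library, as log2(TPM + 1), with the 5 lines on the x axis, a point per repeat and a bar at the mean of the 2 repeats. The scales differ between panels. DRAIC was near 0 in DU145 and PC3, PCAT14 was high in DUCAP and VCAP only, and SCHLAP1 was highest in LNCaP.

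Differences were tested with limma on log2(TPM + 1) with 1 coefficient per line over the 17520 genes that passed the filter, and p-values were adjusted by the Benjamini-Hochberg method over all of them, with calls at 0.05. With a fixed pseudocount of 1, fold changes of weakly expressed genes come out too small. The p-values rest on the spread between repeats, with 1 estimate per gene pooled over the 5 lines and moderated by limma. They speak of these lines only. Where lines are said not to differ beyond their spread, this pooled spread is meant and not that of the 2 lines named. Among the 5 lines, 6 of the 7 tested genes differed by the moderated F test, against 90.8% of all tested genes, so the members' count is not particular to them. The exception was H19, with an adjusted p of 0.063. All 7 passed with a pseudocount of 0.1. A fit without 1 library leaves a line with a single sample, which adds nothing to the pooled spread. The DU145 repeats had the most genes at least 2-fold apart, 998 higher in the first and 663 higher in the second. Counts of calls in fits without a library are therefore not set against those of the main fit.

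DRAIC showed the largest difference among the 7 tested genes between LNCaP, DUCAP and VCAP on the one side and DU145 and PC3 on the other. DRAIC lies at chr15:69561720-69571440 in GRCh38.p14. Its level was 124 and 126 TPM in the DUCAP repeats, 41.6 and 42.8 TPM in VCAP and 14.5 and 16.3 TPM in LNCaP. In DU145 it was 0.28 and 0.07 TPM and in PC3 0.17 and 0.46 TPM, so that all 6 samples of the first 3 lines lay above all 4 of the others. On the log2 scale the difference was 5.17 (SE 0.109, limma adjusted p = 8.7e-09). The order of the lines was DUCAP, VCAP, LNCaP, PC3 and DU145. DUCAP was above VCAP by 1.55 (adjusted p = 0.00062), VCAP above LNCaP by 1.40 (0.00016) and LNCaP above PC3 by 3.64 (5.8e-07), each on the log2 scale by limma, whereas PC3 and DU145 did not differ beyond their spread (limma adjusted p = 0.47). Of the 7 tested members DRAIC had the most calls between lines, 9 of the 10 pairs. Per pair, 18.3 to 67.8% of all tested genes were called.

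PCAT14 was abundant in DUCAP and VCAP and almost undetected in the other 3 lines, LNCaP included. It lies at chr22:23538102-23547306 within an endogenous retrovirus of the HERV-K family, and reads shared with other copies of this repeat make its level uncertain. PCAT14 was measured at 157 and 164 TPM in VCAP and at 62.2 and 72.5 TPM in DUCAP. In LNCaP it was 0.02 and 0 TPM, in DU145 listed at 0 in both repeats, and in PC3 0.01 and 0.08 TPM. LNCaP therefore overlapped DU145 and PC3, and the difference of 4.45 between the 2 sets of lines (SE 0.0945, limma adjusted p = 8.7e-09) rested on DUCAP and VCAP. VCAP exceeded DUCAP by 1.25 on the log2 scale (limma adjusted p = 0.00094) and DUCAP exceeded PC3, the next line, by 6.03 (3.1e-08). The adjusted p was 0.81 between PC3 and LNCaP and 0.95 between LNCaP and DU145.

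PCAT1 was detected in all 5 lines. It lies at chr8:127013154-127021014. LNCaP had 21.7 and 20.6 TPM, VCAP 14.1 and 14.3 TPM and DUCAP 10.5 TPM in both repeats, followed by PC3 with 7.68 and 8.79 TPM. DU145 stood apart with 0.8 and 1.13 TPM. The difference of LNCaP, DUCAP and VCAP from DU145 and PC3 was 1.88 on the log2 scale (SE 0.0970, limma adjusted p = 5.9e-07), with no overlap between the samples. In the order of levels, LNCaP was above VCAP by 0.54 (limma adjusted p = 0.013) and PC3 above DU145 by 2.24 (8.8e-06). VCAP and DUCAP did not differ beyond their spread (0.11), nor did DUCAP and PC3 (0.091).

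SCHLAP1, described as an RNA that opposes the SWI/SNF chromatin remodelling complex, was high in LNCaP alone. It lies at chr2:180692104-180916939. Its level was 18.02 and 15.02 TPM in LNCaP, 1.55 and 1.83 TPM in PC3, 0.89 and 1.6 TPM in DUCAP and 1.02 and 1.12 TPM in VCAP. DU145 was listed at 0 in both repeats. The PC3 samples lay among or above those of DUCAP and VCAP, so the 2 sets of lines overlapped although their means differed by 1.39 on the log2 scale (SE 0.118, limma adjusted p = 1.1e-05). With a pseudocount of 0.1 in place of 1 this difference was 2.79. LNCaP exceeded PC3 by 2.7 (limma adjusted p = 5.1e-06), and VCAP exceeded DU145 by 1.05 (0.0011). PC3 and DUCAP (adjusted p = 0.21) and DUCAP and VCAP (0.80) did not differ beyond their spread.

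MALAT1 and NEAT1 were the most abundant of the 10 RNAs in every library, and both were highest in VCAP and lowest in PC3. They are neighbours on chromosome 11, NEAT1 at chr11:65422798-65445540 and MALAT1 at chr11:65497738-65506516. NEAT1 was 1783 and 911 TPM in VCAP, 547 and 278 TPM in DUCAP, 169 and 198 TPM in LNCaP, 166 and 50 TPM in DU145 and 61.4 and 31.6 TPM in PC3. MALAT1 was 677 and 414 TPM in VCAP, 341 and 209 TPM in DUCAP, 107 and 105 TPM in LNCaP, 95.2 and 21.9 TPM in DU145 and 14.7 and 10.6 TPM in PC3. For both, the 6 samples of LNCaP, DUCAP and VCAP lay above those of DU145 and PC3, but by little, since the lowest of the 6 had 169 TPM of NEAT1 and the first DU145 repeat 166 TPM. The 2 sets of lines differed by 3.3 for MALAT1 (SE 0.380, limma adjusted p = 7.0e-05) and by 2.81 for NEAT1 (SE 0.388, limma adjusted p = 0.00021) on the log2 scale.

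With all libraries in the fit, lines next to each other in level differed in 1 of 4 cases for MALAT1 and in none for NEAT1. For NEAT1 no neighbouring lines differed beyond their spread, with limma adjusted p of 0.089 for VCAP and DUCAP, 0.15 for DUCAP and LNCaP, 0.19 for LNCaP and DU145 and 0.19 for DU145 and PC3. Lines farther apart did, and 6 of the 10 pairs were called, where 18.3 to 67.8% of all tested genes were called per pair. Each of these pairs had the same pooled SE, 0.602 for NEAT1 and 0.589 for MALAT1, to which the DU145 repeats contribute also where DU145 is not compared. For MALAT1 the only neighbours that differed were DU145 and PC3, by 1.80 on the log2 scale (limma adjusted p = 0.034). The levels of both RNAs moved together over the 10 samples, with a Pearson r of 0.975 on the log2 scale, given as a description since repeats share a line and both RNAs share each library.

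The spread between repeats was larger for MALAT1 and NEAT1 than for the other tested members, whose standard errors were at most 0.213. NEAT1 in the first repeat was 1.97 times the second in DUCAP, 1.96 times in VCAP, 3.32 times in DU145 and 1.95 times in PC3, but 0.853 times in LNCaP. MALAT1 ratios were 1.63, 1.64, 4.35 and 1.40 in the same 4 lines and 1.01 in LNCaP. In DUCAP, 0.976% of all tested genes were as far apart between the repeats as NEAT1, and this share was 2.36% in VCAP, 1.51% in DU145, 1.12% in PC3 and 25.8% in LNCaP. The share of genes as far apart as MALAT1 was 2.3% in DUCAP, 5.94% in VCAP, 0.753% in DU145, 8.97% in PC3 and 86.8% in LNCaP. The mitochondrial share of TPM was also higher in the first repeat of DUCAP, VCAP, DU145 and LNCaP (35.5 and 32.1%, 36.0 and 34.5%, 22.5 and 15.3%, 19.7 and 18.9%) and lower in the first repeat of PC3 (12.7 and 15%), and its part in these differences was not tested. With either DU145 repeat or any other library left out, the difference between the 2 sets of lines stayed between 2.78 and 3.82 for MALAT1 and between 2.38 and 3.23 for NEAT1.

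**Figure D2:**
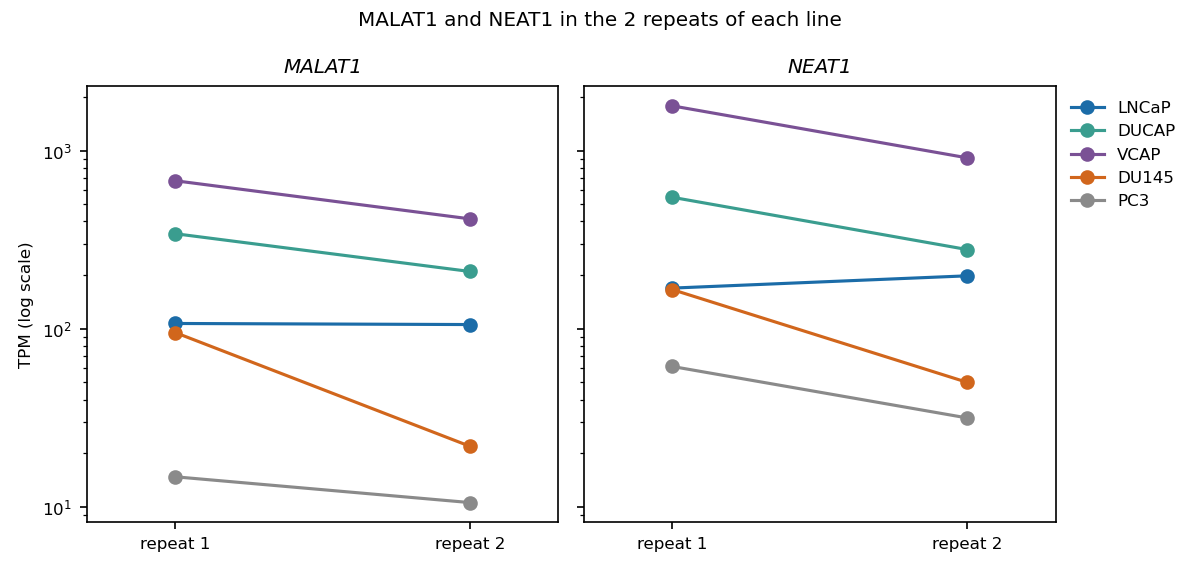
MALAT1 and NEAT1 in TPM, on a log axis, in repeat 1 and repeat 2 of each of the 5 lines, with a line joining the repeats. Repeat 1 was higher in DUCAP, VCAP, DU145 and PC3, and in DU145 MALAT1 went from 95.2 to 21.9 TPM.

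Measured against other long noncoding RNAs, MALAT1 and NEAT1 were near the top in several lines. Of 4199 symbols matched to a RefSeq long noncoding RNA, NEAT1 ranked 1 and 2 in the VCAP repeats and 3 in both DUCAP repeats, and it made up 18.7 and 11.6% of the long noncoding TPM in VCAP. It ranked 6 in both LNCaP repeats and 7 and 23 in the DU145 repeats. In PC3 it ranked 19 and 41, with 0.942 and 0.478% of that total. MALAT1 ranked 3 and 4 in VCAP, 4 and 5 in DUCAP, 13 and 14 in LNCaP, 9 and 64 in DU145 and 89 and 128 in PC3. PCAT14 ranked 9 in both VCAP repeats and 16 in both DUCAP repeats, and DRAIC ranked 13 and 12 in DUCAP. PCAT1 held rank 65 to 77 in the LNCaP, DUCAP and VCAP libraries. SCHLAP1 reached rank 83 and 116 in LNCaP.

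H19 was low in all lines, and it was the tested gene whose level was lower in LNCaP, DUCAP and VCAP. It lies at chr11:1995176-2001266. The level was 0.28 and 0.33 TPM in LNCaP, 0.51 and 0.26 TPM in DUCAP, 0.29 and 0.18 TPM in VCAP, 2.77 and 0.61 TPM in DU145 and 0.95 and 1.11 TPM in PC3. The samples of the 2 sets of lines did not overlap, and the difference was −0.78 on the log2 scale (SE 0.213, limma adjusted p = 0.0099). It was −0.47 without the first DU145 repeat and −1.08 without the second, and with quantile normalization it was −0.40 and no longer passed the threshold (limma adjusted p = 0.077). With a pseudocount of 0.1 it was −1.68. H19 passed the test in 2 of the 10 pairs of lines, where 18.3 to 67.8% of all tested genes were called per pair. No neighbouring lines differed beyond their spread, with limma adjusted p of 0.17 to 0.88. MIR675, the microRNA that is processed from H19, was listed at 0 in every library, and short RNAs are not captured by this kind of library.

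PCA3, PCGEM1 and HOTAIR were near the lower end of detection and were not in the tests above. PCA3 lies at chr9:76764436-76787569, within the span of PRUNE2. Its level was 0.58 and 0.28 TPM in LNCaP and 0.08 and 0.14 TPM in VCAP, and it was listed at 0 in the DUCAP, DU145 and PC3 libraries. PCGEM1, at chr2:192749845-192776899, was 0.89 and 0.96 TPM in LNCaP, 0.81 and 1.2 TPM in DUCAP and 0.09 and 0.03 TPM in VCAP, and was listed at 0 in DU145 and PC3. Of the lines derived from the same patient, VCAP had the higher PCA3 values and DUCAP the higher PCGEM1 values, at levels too low to rank. HOTAIR, at chr12:53962312-53974954, was 3.39 and 0.95 TPM in DU145 and 0.92 and 0.33 TPM in PC3, against 0.11 and 0 TPM in LNCaP, 0.09 and 0 TPM in DUCAP and 0.26 and 0.13 TPM in VCAP. All HOTAIR values of DU145 and PC3 were above those of the other lines, and its DU145 repeats were 1.17 apart on the log2 scale, against 1.23 for H19 and 2.07 for MALAT1.

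In a fit over all 32724 symbols above 0 in some library, in which 48.7% of genes were called, PCA3 differed between the 2 sets of lines by 0.22 on the log2 scale (limma adjusted p = 0.017), PCGEM1 by 0.67 (0.00011) and HOTAIR by −0.98 (0.012). At these levels the values rest on few reads of unknown number, so the differences are given as values and were not ranked with those of the other genes.

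Between LNCaP, DUCAP and VCAP and the other 2 lines, all 7 tested members were called, 6 higher and H19 lower, where 74.4% of all tested genes were called, 22.5% higher and 51.9% lower. The median difference of the 7 was 2.81 on the log2 scale and that of all tested genes was −0.40. This last value depended on the scaling, and was −0.22 after rescaling without mitochondrial genes, −0.01 with median-ratio scaling and 0.08 with quantile normalization. The share of all called genes that were higher moved with it, from 30.2% to 38.8, 48.7 and 53.8%. No member changed direction under these scalings. Samples of the 2 sets did not overlap for 5 of the 7 members (PCAT1, DRAIC, MALAT1 and NEAT1 above, H19 below), against 26.7% of all tested genes.

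**Figure D3:**
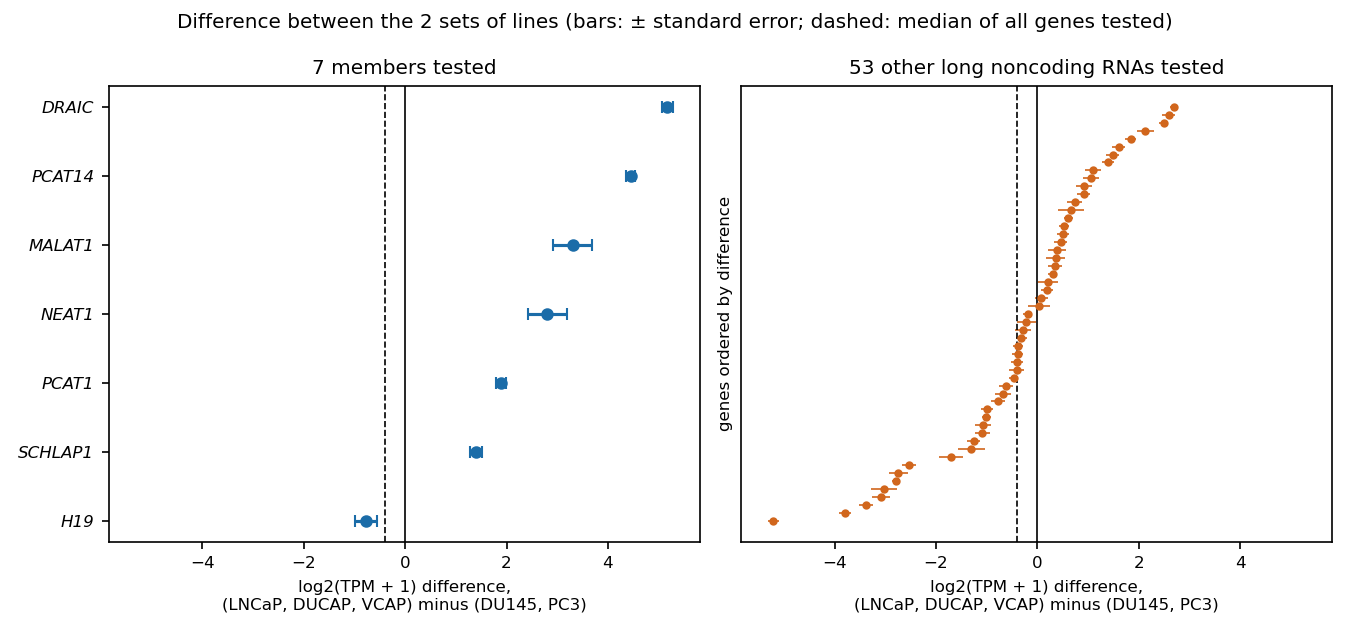
Difference in log2(TPM + 1) of LNCaP, DUCAP and VCAP minus DU145 and PC3, with bars for the standard error, for the 7 tested members (left) and 53 other long noncoding RNAs described in prostate cancer (right). The dashed line marks the median of all tested genes, −0.40. DRAIC and PCAT14 lie at 5.17 and 4.45, beyond any gene of the right panel on the positive side.

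Members were called in 46 of 70 comparisons between single lines, and in 53 and 55 without the first or the second DU145 repeat. DUCAP and VCAP were the most alike, with 2 of the 7 members called (PCAT14 higher in VCAP and DRAIC higher in DUCAP) where 18.3% of all genes were called. VCAP and DU145 differed in all 7 (background 65.4%). LNCaP differed in 4 members from DUCAP (60.7% of all genes), in 6 from VCAP (60.1%), in 4 from DU145 (55.9%) and in 5 from PC3 (57.7%). SCHLAP1 was above the other line in each of these 4 comparisons with LNCaP, and PCAT14 was not called between LNCaP and DU145 or PC3. DUCAP differed from DU145 in 6 members (66.6%) and from PC3 in 4 (67.8%), and VCAP from PC3 in 5 (67.6%). DU145 and PC3 differed in PCAT1 and SCHLAP1, both higher in PC3, and in MALAT1, higher in DU145, that is in 3 members (49.3%).

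The members differed in how far they were restricted to a line. On the tau index of the log2 line means, where 0 is an even level in all lines and 1 a level in 1 line only, PCAT14 had 0.790 and SCHLAP1 0.780. DRAIC had 0.639 and H19 0.583. PCAT1, MALAT1 and NEAT1 were the most even at 0.350, 0.334 and 0.318, near the median of 0.316 over all tested genes, while the median over 937 tested long noncoding RNAs was 0.592. No index is given for PCA3, PCGEM1 and HOTAIR, whose levels did not pass the filter.

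Genes over the members and the nearest coding gene on each side were examined next, by the RefSeq annotation. A nearest gene is called beside, before or after a member whatever its distance. Distances ran from 3356 bases (HOXC12 and HOTAIR) to 2836130 bases (SLC39A10 and PCGEM1). CWC22 was 684807 bases from SCHLAP1, TMEFF2 554912 from PCGEM1, TLE3 476350 from DRAIC and LRATD2 454676 from PCAT1. PRUNE2, which contains PCA3 on the opposite strand, was at 34.9 to 83.7 TPM in LNCaP, DUCAP and VCAP, at 1.72 and 1.39 TPM in DU145 and at 0.01 and 0.12 TPM in PC3, a difference of 5.05 on the log2 scale (limma adjusted p = 8.7e-09). PRUNE2 was thus well expressed in DUCAP, where PCA3 was listed at 0. GCNT1, the nearest coding gene before PCA3 outside PRUNE2, was higher in the same lines by 3.13 (limma adjusted p = 3.8e-07). TMEFF2, the coding gene before PCGEM1, was at 47.3 to 75.2 TPM in LNCaP and DUCAP, 18.6 and 15.8 TPM in VCAP and at most 0.33 TPM in DU145 and PC3, a difference of 5.16 (limma adjusted p = 1.4e-08).

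HOTAIR overlaps HOXC11 and lies between HOXC12 and HOXC10, which encode homeobox transcription factors. HOXC10 was high in DU145 at 24.3 and 17.4 TPM, against 2.09 and 0.7 TPM in PC3, 0.88 and 1.04 TPM in LNCaP and at most 0.09 TPM in DUCAP and VCAP, a difference of −2.44 on the log2 scale between the 2 sets of lines (limma adjusted p = 4.0e-06). HOXC11 was also highest in DU145, at 1.41 and 1.13 TPM (−0.52, limma adjusted p = 0.00013). HOXC12 was at 4.96 and 5.43 TPM in LNCaP and at most 0.24 TPM in the other 4 lines (0.96, limma adjusted p = 5.4e-06). Each of these differences thus rested on a single line, DU145 for HOXC10 and HOXC11 and LNCaP for HOXC12. Of the coding genes beside DRAIC, TLE3, a transcriptional corepressor, was higher by 1.69 (limma adjusted p = 2.1e-06), and RPLP1, a ribosomal protein gene, was not called at 0.07. Beside MALAT1 and NEAT1, FRMD8 was lower by −1.21, whereas both RNAs were higher in LNCaP, DUCAP and VCAP. BCR beside PCAT14 (−0.68) and CWC22 beside SCHLAP1 (−0.94) were lower in every sample of LNCaP, DUCAP and VCAP than in those of DU145 and PC3. LRATD2, UBE2E3 and SLC39A10 differed in the mean, with samples that overlapped. LRATD2 beside PCAT1 (−0.73) was highest in PC3 at 59.9 and 69.7 TPM, and LNCaP, at 27.9 and 28.5 TPM, was above DU145 at 18.2 and 17.4 TPM. UBE2E3 beside SCHLAP1 (−0.85) was likewise highest in PC3 at 185 and 162 TPM, with LNCaP at 98.2 and 96.5 TPM above DU145 at 62.8 and 72.2 TPM. SLC39A10, after PCGEM1 (−0.89), was low in DUCAP and VCAP at 2.79 to 5.1 TPM, while LNCaP had 14.7 and 16.1 TPM, DU145 15.6 and 14.1 TPM and PC3 10.3 and 11.2 TPM. MRPL23, whose span includes H19, was not called at −0.17. FTH1P20, a ferritin pseudogene within the SCHLAP1 span, was lower by −1.97 on the log2 scale, a value that is uncertain since near-identical ferritin copies share reads. FOXB2, POU5F1B, IGLL1, TNNT3, INS-IGF2, RPS17P8 and MIR612, the other genes beside or over the members, did not pass the filter. The libraries were strand-specific, but whether the counting used strand is not given in the sources used here, so reads of PCA3 and PRUNE2, HOTAIR and HOXC11, and H19 and MRPL23 may not be fully separated.

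**Figure D4:**
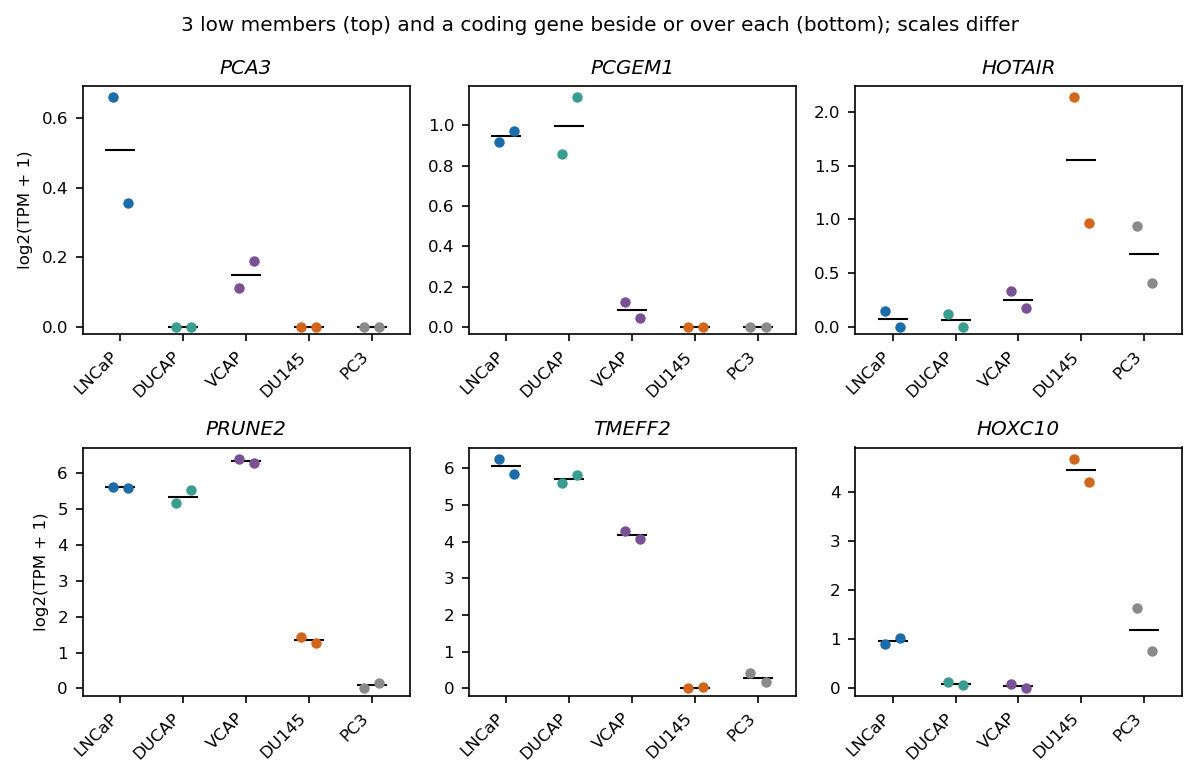
Levels of PCA3, PCGEM1 and HOTAIR (top) and of PRUNE2, TMEFF2 and HOXC10 (bottom) as log2(TPM + 1) in each library of the 5 lines, with a bar at the mean of the 2 repeats and scales that differ between panels. PRUNE2 and TMEFF2 were high in LNCaP, DUCAP and VCAP, and HOXC10 was highest in DU145. TMEFF2 lies 554912 bases from PCGEM1.

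The genes whose levels were most like those of each member over the 10 samples were named by Pearson r on the log2 scale, as a description. For PCAT14 these were SCGN and AC096647.1 (both with r of at least 0.999), and 205 tested genes reached 0.95. For DRAIC they were RPL27A (0.996) and COLEC12 (0.995), for PCAT1 TBX3 and BMPR1B (both 0.994), and for SCHLAP1 KDM6A (0.989) and TRIM68 (0.987). MALAT1 was most like NEAT1 (0.975) and MYT1 (0.973), and NEAT1 most like AC009022.1 (0.977) and MALAT1. For H19 they were RAET1G (0.972) and PNRC1 (0.970). With 5 lines, high values of r are reached by many genes, 10 for H19 and 76 for DRAIC at 0.95.

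Among other long noncoding RNAs described in prostate cancer, members' differences had no single counterpart in direction. Of 85 listed names 75 were in the table and 53 were tested, and 43 of them (81.1%) were called between LNCaP, DUCAP and VCAP and the other lines, 19 higher and 24 lower, with a median of −0.19. Other scalings gave 25 higher and 18 lower (without mitochondrial genes), 26 and 17 (median-ratio) and 26 and 15 (quantile). Of all 937 tested long noncoding RNAs 75.0% were called, with a median of −0.26. The largest differences were those of CYTOR, at most 4 TPM in LNCaP, 0 in DUCAP and VCAP and 53.7 to 66.3 TPM in DU145 and PC3 (−5.21), and of LINC00261, at 155 and 215 TPM in PC3 and at most 0.14 TPM elsewhere (−3.80). LINC01116 (−3.38) was also highest in PC3, at 39.9 and 39.2 TPM, and LUCAT1 (−3.09) in DU145, at 73.1 and 40.7 TPM. Higher in LNCaP, DUCAP and VCAP were SNHG8, a snoRNA host gene, by 2.69, CBR3-AS1 by 2.59, PART1, a prostate-enriched RNA listed at 0 in DU145 and PC3, by 2.49. CRNDE differed by 2.13 in the mean, which rested on PC3 at 0.23 and 0 TPM, while DU145 at 6.2 and 10.2 TPM overlapped DUCAP at 9.98 and 7.12 TPM and VCAP at 8.51 and 10.1 TPM.

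Genes of proteins described as partners of these RNAs were compared by their mRNA. Of 25 listed 24 were tested and 12 (50%) were called, against 74.4% of all tested genes, 6 in each direction, with a median of −0.17. This count depended on the first DU145 repeat. Other scalings gave 8 higher and 4 lower, 11 and 3, and 12 and 3, in the order given for the long noncoding RNAs. Of 8 paraspeckle proteins that bind NEAT1, 3 were called, NONO higher by 1.00, SFPQ higher by 0.40 and PSPC1 lower by −0.31. Of 5 nuclear speckle proteins 2 were called, SON by 0.71 and SRRM2 by 0.69. The samples did not overlap for SRRM2, whereas SON in the first LNCaP repeat, at 89.6 TPM, was below both DU145 repeats at 90.5 and 90 TPM. Of 5 Polycomb and LSD1 complex proteins described with HOTAIR, SUZ12 was higher by 0.53 and RCOR1 lower by −0.59. SUZ12 in LNCaP, at 26.1 and 23.3 TPM, was below DU145 at 31.2 and 30.9 TPM. Of 3 SWI/SNF subunits described with SCHLAP1, SMARCA4 was higher by 0.98 and SMARCB1 lower by −0.38. SMARCA4 was at 8.82 and 9.21 TPM in DU145 but highest in PC3 at 103 and 114 TPM. Samples of SFPQ, PSPC1 and SMARCB1 also overlapped between the 2 sets of lines, whereas those of NONO and RCOR1 did not. The 3 tested genes listed with H19 were called lower, the RNA-binding protein genes IGF2BP2 by −5.35 and IGF2BP3 by −2.93, and IGF2, the growth factor gene of the same imprinted region, by −0.66. The value of IGF2 rested on PC3 at 2.29 and 2.54 TPM, since DU145, the line with the highest H19 mean, had 0.45 and 0.15 TPM and LNCaP 0.52 and 0.48 TPM.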

How the data were processed

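Bulk RNA-seq of 10 untreated samples (5 lines, 2 repeats each) was used, grouped by the line and repeat number in the labels. The kit enriched polyA RNA and kept strand. The authors checked reads with FastQC 0.11.9, trimmed them with Trim Galore 0.6.5, aligned them with STAR 2.7.2b to GRCh38 and quantified genes with RSEM 1.3.3, as their methods and processing notes give. They deposited TPM for each sample, unpooled and with no stated scaling between samples. The study's methods give the sequencing yield only as a range over samples, and TPM do not hold read counts, so no interval or floor per value was set.

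TPM were transformed to log2(TPM + 1). The filter of at least 1 TPM in 2 or more samples left 17520 genes. The limma 3.58.1 model (R 4.3.3) had a coefficient for each line over all 10 samples, with trended prior variance, and p-values were adjusted by Benjamini-Hochberg with calls at 0.05. The comparisons were an F test over the lines, LNCaP, DUCAP and VCAP against DU145 and PC3, and each of 10 pairs of lines. The steps were tested on simulated data. Named genes were the members, for each tested member the 2 genes with the highest Pearson r, overlapping and adjacent coding genes, and from the lists the 4 largest called changes in each direction. SFPQ, PSPC1, SUZ12 and SMARCB1 fall outside that rule and were named after their values were seen. Coordinates were taken from RefSeq (GRCh38.p14), in which 37776 symbols matched, and transcript ends from Gencode sequences by transcript ID. Members and lists were chosen with earlier results of these data known. Alternatives were the pseudocount, filter, scaling, variance trend, a replicate block, a fold threshold and each library left out in turn. Python 3.11.15 with pandas 2.3.3, numpy 2.4.6 and matplotlib 3.10.9 was used for the remaining steps. Some genes are not reported here.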

Additional observations from a re-analysis of the deposited data

Results flagged for a closer look

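PCAT14 in the second PC3 repeat was 0.08 TPM, apart from the other DU145 and PC3 samples, which were listed at 0, 0 and 0.01 TPM. It was picked out as a sample far from the others of its set, among 18 such measures examined, where about 1 in 20 groups is picked out by chance. All 4 values are far below those of DUCAP and VCAP.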

How the results depend on the processing

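All 7 tested members kept their direction under every alternative run. Under settings that kept all libraries, H19 alone dropped below the threshold, with quantile normalization (−0.40) and with a threshold of 2-fold. The count of members called between the 2 sets of lines was 6 to 10 under settings that kept all libraries. A threshold of 2-fold left 6144 of 13033 calls over all genes, 24 of 43 among the other long noncoding RNAs and 3 of 12 among the protein partners. With 1 library left out the partners' count was 11 to 19, the 19 (6 higher and 13 lower) without the first DU145 repeat. Deviations of same-numbered repeats had a mean correlation of 0.00922, from −0.191 to 0.249 over 10 pairs of lines. Correlations of both signs cancel in this mean, so it cannot decide whether repeat numbers pair the samples. With the replicate block 12 partners, 43 other long noncoding RNAs and 7 members were called. The block also raised the calls between pairs of lines from 46 to 51 of 70. The depth of each library, which TPM do not show, limits values under 1 TPM.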

Other observations

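MALAT1 and NEAT1 were at least 0.45 higher on the log2 scale in repeat 1 than in repeat 2 of DUCAP, VCAP, DU145 and PC3. A count over all tested genes, made after these values were seen, found 8 genes at least this much higher in repeat 1 of all 4 lines and 4 genes at least this much lower. NEAT1 and MALAT1 had the largest mean differences of the 8, at 1.15 and 0.98. The other genes were GDF15 (0.90), a stress-responsive secreted factor, AL513314.2 (0.84), ALS2CL (0.75), the long noncoding RNA HOTAIRM1 of the HOXA cluster (0.67), CDC37L1-DT (0.63) and GOLGA8A (0.62). Repeat numbers are not stated to mark a shared batch.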
